A study of Mus musculus with 16 samples.

Results

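Keratins build the intermediate filaments of epithelial cells, and the 46 keratin genes described here are those of the mouse epidermal libraries that are not the stress keratins of wounded skin. They were taken from a table of counts by name: protein-coding genes whose symbol is Krt followed by a number and at most 1 letter, without Krt6a, Krt6b, Krt16 and Krt17, and with at least 10 counts summed over 16 libraries. The annotation holds 53 protein-coding keratins, of which 4 are the stress keratins and 3 stayed below 10 counts (Krt40 with 8, Krt26 with 7 and Krt76 with 7). The other 46 were part of 22155 genes tested, from 50600 gene identifiers. The rule uses names and total counts, not differences between groups, though earlier results of these data were known when it was set.

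Epidermal cells came from the footpad of female C57/B6J mice, with 1 mouse to a library and 4 mice in each of 4 groups. From 5 wk of age and for 3 wk, every mouse received the same purified diet, either as it is (AhR-poor diet, SYNTH in the labels), which is poor in ligands of the aryl hydrocarbon receptor AhR, or supplemented with indole-3-carbinol at 200 ppm (I3C diet), a precursor of such ligands. Then papain (50 μg), a cysteine protease that serves as an allergen, was injected into the footpad in 50 μl of PBS, with PBS by itself as the vehicle, and the tissue was taken 6 hr later. The epidermis was parted from the dermis with dispase, and the mice of a diet were housed in a common cage, so diet and cage cannot be told apart. In such bulk samples, fewer cells of a type and less RNA per cell cannot be told apart either. The library codes T100 to T115 are used below to name single mice. The study's question was how AhR ligands of the diet bear on the response of skin to an allergen; for these genes it becomes which keratins differ between the diets and which between papain and vehicle.

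Keratin filaments are made of pairs of an acidic type I and a basic type II chain. Basal keratinocytes make Krt5 with Krt14, and Krt15 as a further type I chain, and cells that leave the basal layer switch to Krt1, Krt2 and Krt10. Other keratins mark appendages: the inner root sheath, companion layer, cuticle and cortex of the hair follicle, the sebaceous duct and the nail. By these textbook roles the 46 genes fell into basal (3), suprabasal (7), simple epithelial (6), internal stratified and corneal (4), companion layer, sebaceous duct and nail (4), inner root sheath (6) and hair and nail (15) keratins, with Krt222 left unplaced. Positions below are of GRCm38. The type I genes lie together on chromosome 11 and the type II genes on chromosome 15, and Krt18, a type I gene, also lies on chromosome 15.

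The 250 bases upstream of the annotated start were available from RefSeq (GRCm38.p6) for 33 of the 46 genes, as 34 sequences. They were searched on both strands for TATAAA (the core of the TATA box), for GCGTG (the core of the site that AhR binds) and for TGANTCA (the site of AP-1 factors), of which none contains another. TATAAA stood in 14 of the 34 (41.2%), against 12.4% of 32851 mouse promoters of the same length. GCGTG stood in 4 (11.8%, against 28.2%) and TGANTCA in 2 sequences of 1 gene (5.9%, against 6.75%). Of these, 5 are printed 5′ to 3′, for the most abundant keratin (Krt10), for 2 genes that were lower after papain (Krt12 and Krt32), for 1 that was higher (Krt75) and for the abundant gene that differed by diet (Krt79), with TATAAA or GCGTG on either strand in capitals.
Krt10, chr11:99389365-99389614, minus strand: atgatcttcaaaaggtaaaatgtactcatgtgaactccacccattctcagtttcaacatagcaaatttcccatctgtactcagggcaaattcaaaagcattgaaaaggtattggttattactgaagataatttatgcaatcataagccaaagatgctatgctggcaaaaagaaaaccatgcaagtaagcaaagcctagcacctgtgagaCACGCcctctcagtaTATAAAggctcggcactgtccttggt
Krt12, chr11:99422260-99422509, minus strand: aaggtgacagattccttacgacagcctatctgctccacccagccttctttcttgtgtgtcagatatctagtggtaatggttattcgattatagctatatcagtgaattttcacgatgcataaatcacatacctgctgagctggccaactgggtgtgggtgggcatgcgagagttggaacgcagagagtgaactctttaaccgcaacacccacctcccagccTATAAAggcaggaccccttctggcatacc
Krt32, chr11:100088270-100088519, minus strand: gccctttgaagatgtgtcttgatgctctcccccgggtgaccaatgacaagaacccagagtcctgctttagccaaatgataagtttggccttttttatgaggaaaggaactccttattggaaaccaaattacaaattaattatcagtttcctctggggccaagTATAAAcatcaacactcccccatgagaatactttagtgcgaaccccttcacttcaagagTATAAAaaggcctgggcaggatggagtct
Krt75, chr15:101573905-101574154, minus strand: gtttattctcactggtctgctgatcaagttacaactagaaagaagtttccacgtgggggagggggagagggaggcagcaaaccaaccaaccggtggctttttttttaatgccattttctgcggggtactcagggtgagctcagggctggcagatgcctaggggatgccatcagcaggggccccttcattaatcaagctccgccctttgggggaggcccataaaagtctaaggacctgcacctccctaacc
Krt79, chr15:101940325-101940574, minus strand: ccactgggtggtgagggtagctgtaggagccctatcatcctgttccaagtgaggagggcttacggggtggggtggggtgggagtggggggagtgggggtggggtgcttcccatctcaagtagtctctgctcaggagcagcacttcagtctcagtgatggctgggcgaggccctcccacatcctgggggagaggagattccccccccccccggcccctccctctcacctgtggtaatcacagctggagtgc
Krt10 holds TATAAA 26 bases and GCGTG 41 bases before the start (read to the first base of the motif), Krt12 holds TATAAA 29 bases before it, and Krt32 holds TATAAA 88 and 29 bases before it. The Krt75 and Krt79 sequences hold none of the 3. These are matches of letters in a window, and no binding was measured.

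The 5 most abundant genes made up nearly all keratin RNA. Krt10, Krt2, Krt14, Krt5 and Krt1 together held 95.1% to 97.8% of the counts on the 46 genes, and the 46 genes held 4.95% to 8.48% of all counts of a library. Levels are given as CPM, the count scaled by the library total and its TMM factor, and between genes as CPM per kilobase of exon. On the latter scale Krt10, the main type I keratin of suprabasal cells, came first with 10829, followed by Krt2, the type II keratin of the upper spinous layer (6212), Krt14 (6132) and Krt5 (4617), and Krt1, the usual partner of Krt10, at 1270.4. The next 3 were Krt15 (348), Krt24 (343) and Krt79 (137), a keratin of the sebaceous duct and follicle opening. Exon length here joins all annotated exons of a gene, and it was 4415 bases for Krt1 and 4753 for Krt79. It was 1758 to 2613 bases for Krt14, Krt5, Krt10 and Krt2, so the order between genes depends on this choice. In mean CPM not divided by length, Krt79 (653) came before Krt24 (633) and Krt15 (614). Over single libraries, in CPM not divided by length, Krt10 ranged from 12058 to 32101 CPM, Krt2 from 7329 to 24047 CPM, Krt14 from 8323 to 14085 CPM, Krt5 from 7574 to 14428 CPM and Krt1 from 3911 to 7363 CPM. Per kilobase, the ranges of Krt2 (2805 to 9203), Krt14 (4735 to 8012) and Krt5 (3447 to 6567) overlapped, as did those of Krt15 (97.9 to 749.7) and Krt24 (134 to 609.9). Compared within a library, Krt2 was above Krt14 in 8 of 16 and Krt15 above Krt24 in 8 of 16, so these neighbours had no fixed order. Krt14 was above Krt5, and Krt10 above Krt2, in 16 of 16. Krt1 (886 to 1668) lay below the first 4 and above Krt15 in each library. A further 3 suprabasal keratins stood between 14.03 and 29.1 CPM per kilobase, and each of the genes after them averaged 1.74 or less. Krt9, the keratin of palm and sole epidermis, was among these, with 0.257 to 11.5 CPM over the 16 libraries of footpad epidermis.

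**Figure D1:**
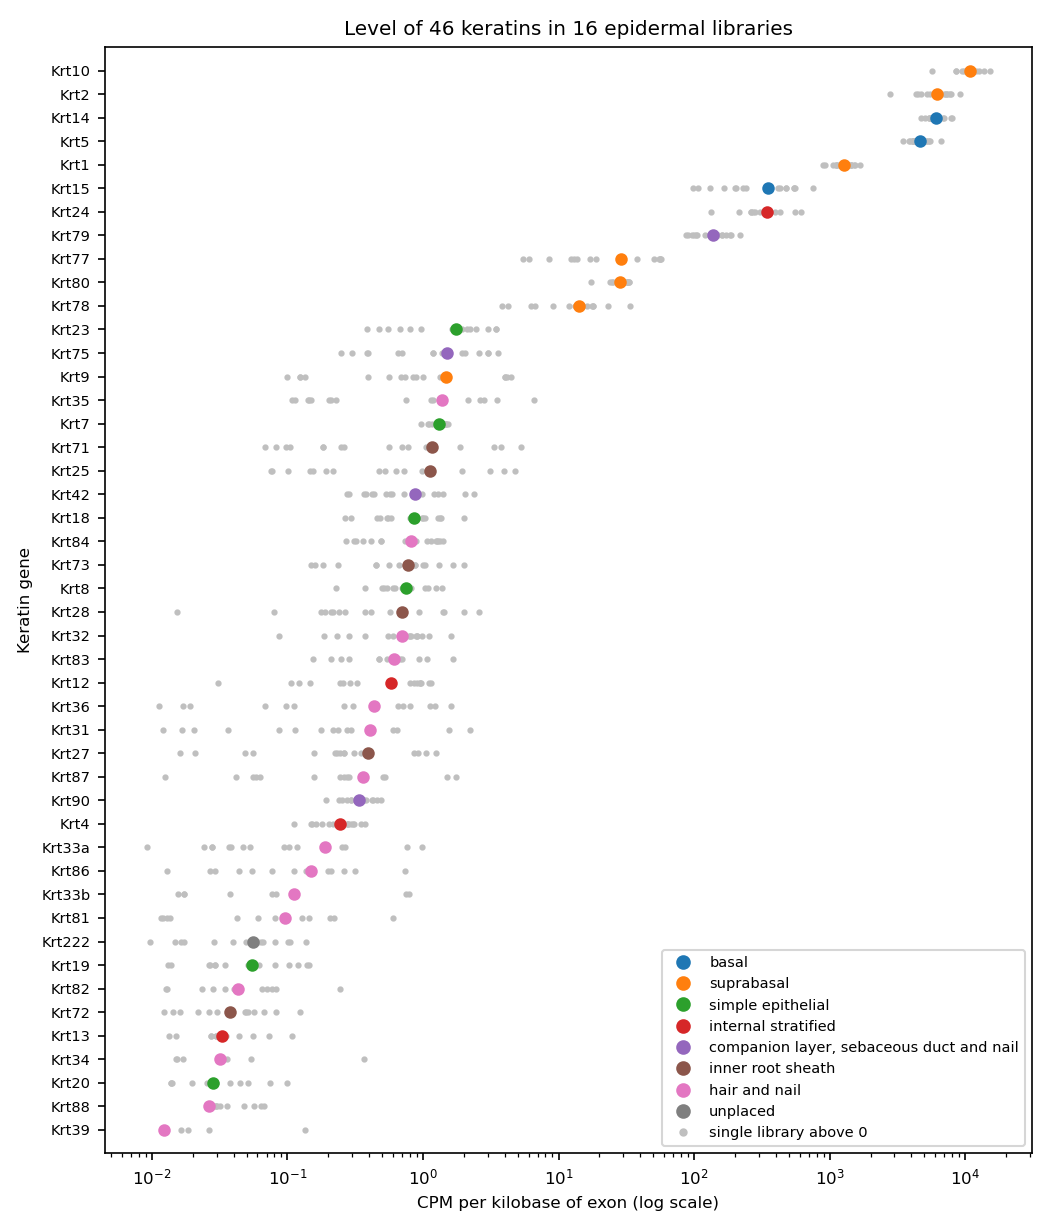
Mean level of the 46 keratins in CPM per kilobase of exon on a log scale (coloured points, by class) with the single libraries above 0 in grey. Krt10 leads at 10829, 8 genes exceed 100, and the hair and nail keratins, in pink, average between 0.0123 and 1.38.

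Library totals ran from 22500821 to 51844375 counts, so that 3 counts, taken as the detection floor, equalled 0.0569 to 0.130 CPM (counting error only). Markers of basal (4488 to 8074 CPM summed over 5 genes) and suprabasal keratinocytes (2706 to 6527 CPM over 7 genes) were high in all 16 libraries. Markers of the eccrine sweat gland, an appendage of the footpad, summed over 8 genes to 206 to 244 CPM with vehicle and 124 to 164 CPM with papain on the I3C diet, and to 205 to 233 and 146 to 153 CPM on the AhR-poor diet, lower with papain on both without overlap. Of the 7 that reached 10 counts and were tested, Aqp5 was called lower with papain on the I3C diet, Trpv6 lower with papain on the AhR-poor diet and Foxc1 higher in AhR-poor than in I3C mice with papain. Markers of dermal fibroblasts summed to 9.55 to 13.5 and 2.28 to 11.6 CPM on the I3C diet with vehicle and papain, and to 96.6 to 173 and 259 to 648 CPM in the same order on the AhR-poor diet. All 8 genes were called higher in both diet comparisons and with papain on the AhR-poor diet. Neutrophil markers (6 genes) were at 0.517 to 0.952 CPM with vehicle and 20.1 to 29.5 CPM with papain on the I3C diet, and at 1.77 to 2.47 and 37.7 to 176 CPM on the AhR-poor diet. Markers of Langerhans cells (4 genes) and melanocytes (5 genes) were at 199 to 444 and 1.35 to 2.52 CPM on the I3C diet with vehicle against 639 to 722 and 6.38 to 7.76 CPM on the AhR-poor diet. These shifts accompany the comparisons below, and their part in the keratin values was not tested. The 4 stress keratins left out of the set were each called higher after papain on both diets.

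With papain, Krt15 and Krt12 fell on both diets and Krt32 fell on the I3C diet, where Krt75 and Krt84 rose. A gene was called where the adjusted p was under 0.01 and the log2 fold change exceeded 1 in size, from edgeR's quasi-likelihood test fitted to all 22155 genes with Benjamini-Hochberg adjustment. On the I3C diet 3 of the 46 keratins were called lower (6.52%, against 5.29% of all genes tested) and 2 higher (4.35%, against 3.69%). On the AhR-poor diet 2 were called lower (4.35%, against 2.42%) and 1 higher (2.17%, against 6.04%). The median log2 fold change of the 46 was -0.44 on the I3C diet, beside -0.04 for all genes, and 0.01 on the AhR-poor diet, beside -0.0044 for all genes. The AhR-poor median includes Krt34 and Krt39, which passed the count filter only through the AhR-poor papain libraries and were bound to come out higher there. Each number of keratins called lay within 2 genes of what the share of all genes would give.

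Krt15, a type I keratin of basal cells and of the follicle bulge (chr11:100131758-100135928), showed the clearest difference. With vehicle on the I3C diet the 4 mice had 962, 756, 838 and 838 CPM, and with papain 293, 189, 232 and 173 CPM. On the AhR-poor diet the values were 1325, 969, 975 and 737 CPM with vehicle and 407, 423, 355 and 357 CPM with papain. Every papain library lay below every vehicle library on either diet. The log2 fold change was -1.93 (SE 0.17, adjusted p = 2.37e-07) on the I3C diet and -1.38 (SE 0.17, adjusted p = 1.13e-05) on the AhR-poor diet. Krt5 and Krt14, the other basal keratins, moved less. Krt5 had 14428, 12107, 11902 and 10481 CPM with vehicle and 8902, 9029, 8529 and 8491 CPM with papain on the I3C diet, without overlap, for a log2 fold change of -0.49 (SE 0.10, adjusted p = 0.00101), which passed the adjusted p but not the fold threshold. Without a minimum fold change, 6 of the 46 (13.0%) passed on the I3C diet and 3 (6.52%) on the AhR-poor diet, against 25.7% and 22.5% of all genes. On the AhR-poor diet the Krt5 groups overlapped (11303, 11259, 11631 and 9016 CPM with vehicle and 9432, 8997, 7574 and 9229.9 CPM with papain, -0.29 (SE 0.10, adjusted p = 0.0342)). Krt14 had a log2 fold change of -0.34 (SE 0.12, adjusted p = 0.0347) on the I3C diet and -0.08 (SE 0.12, adjusted p = 0.678) on the AhR-poor diet. Its vehicle and papain libraries did not overlap on the I3C diet (10987 to 14085 against 9511 to 10681 CPM) and overlapped on the AhR-poor diet (8323 to 12320.3 against 8939 to 11136 CPM). Beside these values, of 5 markers of basal keratinocytes none was called in either papain comparison by edgeR or by DESeq2, and their log2 fold changes ran from -0.28 to 0.68 on the AhR-poor diet and from -0.11 to 0.65 on the I3C diet. Their lowest edgeR adjusted p was 0.00293 on the AhR-poor diet and 0.00353 on the I3C diet. At least 1 marker thus passed the adjusted p but not the fold threshold on each diet.

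Krt12, known as the keratin of the corneal epithelium (chr11:99415666-99422259), was a rare transcript here, with 636 counts in all. It had 1.49, 1.66, 2.12 and 1.77 CPM with vehicle and 0.536, 0.224, 0.0571 and 0.274 CPM with papain on the I3C diet, and 1.77, 1.80, 2.05 and 1.58 CPM with vehicle and 0.197, 0.455, 0.476 and 0.598 CPM with papain on the AhR-poor diet. As for Krt15, vehicle and papain libraries did not overlap on either diet. The log2 fold change was -2.64 (SE 0.38, adjusted p = 1.91e-05) on the I3C diet and -2.07 (SE 0.36, adjusted p = 1.88e-04) on the AhR-poor diet. The exons of Krt12 share 1007 bases with the antisense gene A830036E02Rik (1065 counts), and as the strand setting of the counting is not given in the sources used here, reads of the pair may not be told apart.

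Krt32, a type I keratin of the hair cuticle (chr11:100080848-100088226), had 1.55, 1.35, 1.69 and 1.56 CPM with vehicle and 0.487, 0.321, 0.400 and 0.149 CPM with papain on the I3C diet. The groups were apart, and the log2 fold change was -2.17 (SE 0.33, adjusted p = 3.08e-05). On the AhR-poor diet its groups were also apart, at 2.75, 1.91, 1.53 and 1.39 CPM with vehicle and 1.38, 0.645, 0.952 and 1.03 CPM with papain, with a log2 fold change of -0.92 (SE 0.29, adjusted p = 0.0189) that was not called. Krt84, a type II keratin of nail, tongue and hair cuticle (chr15:101525026-101532820), went the other way. It had 1.09, 0.714, 0.816 and 1.29 CPM with vehicle and 3.29, 3.43, 3.34 and 3.68 CPM with papain on the I3C diet, with a log2 fold change of 1.82 (SE 0.33, adjusted p = 2.13e-04). On the AhR-poor diet mouse T103 with vehicle, at 3.00 CPM, lay among the papain values of 3.50, 1.95, 2.81 and 2.34 CPM, and the log2 fold change of 0.80 (SE 0.32, adjusted p = 0.0603) was not called. Krt75, the type II keratin of the companion layer (chr15:101563345-101573904), had 2.27, 0.816, 2.12 and 1.29 CPM with vehicle and 3.90, 9.88, 11.7 and 6.29 CPM with papain on the I3C diet, with a log2 fold change of 2.29 (SE 0.54, adjusted p = 0.00410). That call was lost without T109, T111, T113 or T114, with adjusted p-values up to 0.0155. The AhR-poor values of Krt75 were 4.79, 0.979, 4.52 and 1.26 CPM with vehicle and 9.82, 3.87, 8.48 and 6.72 CPM with papain (1.31 (SE 0.52, adjusted p = 0.0663)).

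Krt33b, a type I keratin of the hair cortex (chr11:100023634-100029868), was the gene called higher with papain on the AhR-poor diet, and 2 mice carried it. Its counts summed to 2 in the vehicle libraries and to 97 in the papain libraries, of which T104 held 48, T105 held 0, T107 held 3 and T112 held 46. The ratio of the sums, scaled by library size, was 48.2 (exact 95% interval 13.0 to 404, counting error only), and the groups overlapped. The adjusted p of 0.00656 from edgeR rose to 0.0233 without T101, and the call was lost in 6 of 16 fits that left out 1 library each (T100, T101, T102, T103, T104 and T112) and with DESeq2. Of its 100-base windows 4.05% occur also in Krt31, Krt33a or Krt34, so reads there may be split.

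The abundant suprabasal keratins were not called in any comparison by edgeR or DESeq2. With papain on the AhR-poor diet the log2 fold change was -0.44 (SE 0.19, adjusted p = 0.0870) for Krt10, -0.71 (SE 0.21, adjusted p = 0.0175) for Krt2 and 0.01 (SE 0.16, adjusted p = 0.991) for Krt1. Mouse T104 had the lowest Krt10 and Krt2 of all libraries, at 12058 and 7329 CPM, and the other 3 mice of its group had 21496, 20709.6 and 23602 CPM of Krt10. On the I3C diet the corresponding log2 fold changes were -0.05 (SE 0.19, adjusted p = 0.883), -0.23 (SE 0.21, adjusted p = 0.443) and 0.21 (SE 0.16, adjusted p = 0.354). Krt24, a type I keratin of differentiated keratinocytes, had 521, 643, 791 and 1017 CPM with vehicle and 247, 395, 488 and 646 CPM with papain on the AhR-poor diet (-0.74 (SE 0.29, adjusted p = 0.0638)), and 565, 731, 663 and 1127 against 505, 482, 667 and 635 CPM on the I3C diet (-0.43 (SE 0.29, adjusted p = 0.280)). Its groups overlapped on both diets. Over the 46 keratins, vehicle and papain libraries did not overlap for 11 genes (23.9%) on the I3C diet and for 4 (8.7%) on the AhR-poor diet, against 33.4% and 33.0% of all genes.

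**Figure D2:**
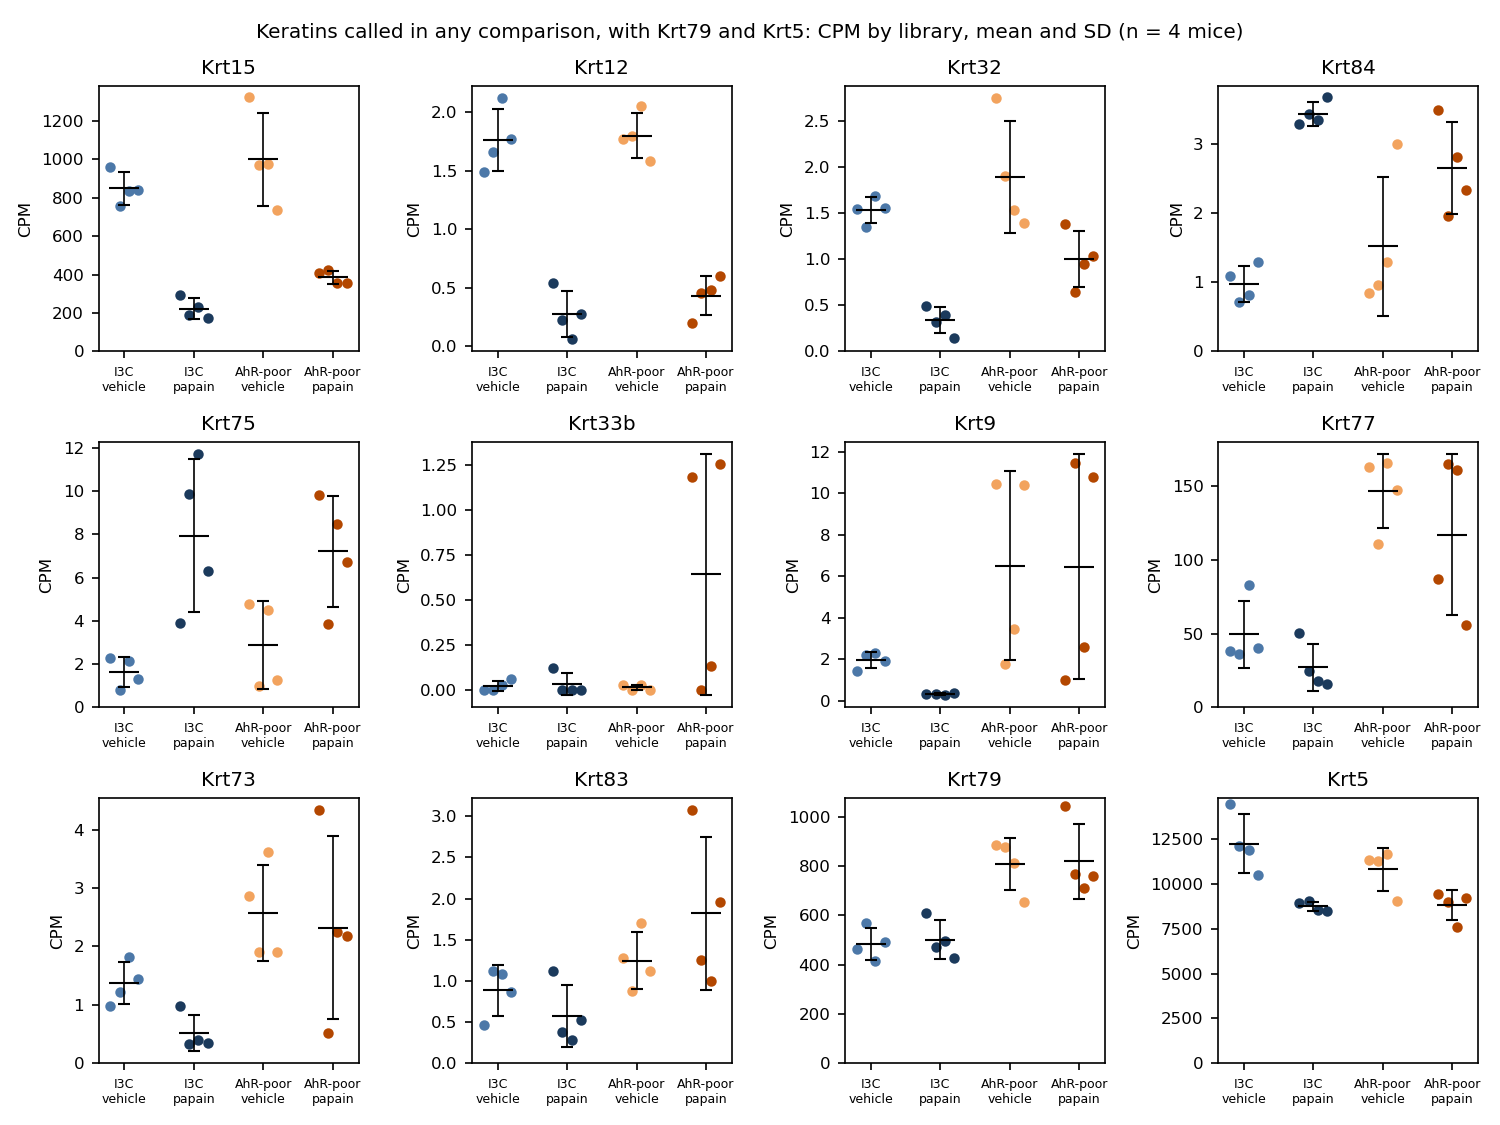
CPM of the 10 keratins called in any comparison, and of Krt79 and Krt5, in each library by group, with the mean and SD of 4 mice. Papain libraries lie below vehicle libraries for Krt15 and Krt12 on both diets, Krt79 is higher in each AhR-poor library (654 to 1044 CPM) than in any I3C library (415 to 610.3 CPM), and the AhR-poor mice of Krt33b and Krt9 spread widely.

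With papain, 5 keratins were called higher in AhR-poor mice than in I3C mice: Krt9 and Krt77 among the suprabasal genes, Krt73 of the inner root sheath, and Krt32 and Krt83 of the hair shaft. They made up 10.9% of the 46, against 7.15% of all genes called higher. None was called lower by edgeR or DESeq2, 0 of 46 were lower at an unadjusted p under 0.05 (against 14.5% of all genes), and 0.0993% of all genes were called lower. The median log2 fold change of the 46 was 0.97, beside 0.01 for all genes, and 22 of them (47.8%, against 17.5% of all genes) were higher at an unadjusted p under 0.05. This median and count include Krt34 and Krt39, which reached 10 counts only through the AhR-poor papain libraries (26 of 31 and 10 of 12 counts) and were bound to come out higher here. Among the 22, 10 were hair and nail and 5 were inner root sheath keratins, low classes that followed single mice, as described below. The suprabasal, companion layer, basal and simple epithelial classes gave 3, 2, 1 and 1. Median log2 fold changes were 0.03 for the basal and 0.08 for the suprabasal keratins. Without a minimum fold change, 7 passed (15.2%, against 11.2%), and the groups did not overlap for 6 (13.0%, against 24.9%). The count of 5 was sensitive to single mice: it was 1 without T115 (Krt9), 2 without T104 (Krt9 and Krt77), 2 without T113 or T114 (Krt9 and Krt32 each time), 3 without T107, T109, T111 or T112, and 8 without T105.

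Krt9 (chr11:100186781-100193246) had the largest fitted difference of these 5. The papain libraries held 0.317, 0.321, 0.257 and 0.348 CPM on the I3C diet and 1.01, 11.5, 2.60 and 10.8 CPM on the AhR-poor diet, all of the latter above all of the former. The log2 fold change was 4.38 (SE 0.83, adjusted p = 0.00199), and the call stood in all 16 fits that left out 1 library, with adjusted p-values up to 0.00924. With vehicle the values were 1.44, 2.19, 2.29 and 1.89 CPM on the I3C diet and 10.4, 1.77, 3.44 and 10.4 CPM on the AhR-poor diet, which overlapped (1.74 (SE 0.68, adjusted p = 0.279)). Within the AhR-poor diet the mice fell far apart, and T100, T103, T105 and T112 exceeded 10 CPM. Papain libraries lay below vehicle libraries for Krt9 on the I3C diet, where the log2 fold change of -2.64 (SE 0.85, adjusted p = 0.0255) did not reach the threshold.

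Krt77, a type II keratin made in differentiated cells of adult epidermis and in sweat ducts (chr15:101858731-101869705), was higher on the AhR-poor diet in every mouse under either treatment. With papain it had 50.3, 24.9, 17.7 and 16.04 CPM on the I3C diet and 87.1, 165, 161 and 55.6 CPM in AhR-poor mice, with a log2 fold change of 2.10 (SE 0.44, adjusted p = 0.00451). With vehicle it had 38.4, 36.5, 83.3 and 40.0 and 163, 111.02, 166 and 147 CPM, and the log2 fold change of 1.57 (SE 0.43, adjusted p = 0.0820) was not called. The call with papain was lost without T105, T107, T113, T114 or T115 and with only the 8 papain libraries in the fit. Krt73, a type II keratin of the inner root sheath cuticle (chr15:101793308-101802346), had 0.974, 0.321, 0.400 and 0.348 CPM on the I3C diet and 4.33, 0.512, 2.25 and 2.18 CPM in AhR-poor mice with papain (2.14 (SE 0.52, adjusted p = 0.00727)), where T105 overlapped the I3C mice. Its vehicle values, 0.976, 1.22, 1.82 and 1.44 against 2.86, 1.91, 3.61 and 1.90 CPM, did not overlap (0.91 (SE 0.47, adjusted p = 0.464)). Krt83, a type II keratin of the hair cortex (chr15:101485130-101491512), had 1.12, 0.385, 0.285 and 0.522 against 3.08, 1.25, 0.995 and 1.96 CPM with papain (1.64 (SE 0.41, adjusted p = 0.00850)). Here T106 on the I3C diet overlapped the AhR-poor mice, and the call was lost without each of the 8 papain mice but T105, T106 and T107, and without T100, T103, T109, T110 or T111. The call of Krt73 was lost without T100, T109, T111 or any papain mouse but T105 and T106. Krt83 shares 5.17% of its 100-base windows with Krt81, Krt86 or Krt87. Krt32, with the papain values given above, had a log2 fold change of 1.55 (SE 0.33, adjusted p = 0.00246) between the diets and lost the call without T104 or T115.

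Between the diets with vehicle, 0 of 46 keratins were called by edgeR, against 1.59% of all genes. At an unadjusted p under 0.05, 7 (15.2%, against 8.94% of all genes) were higher in AhR-poor mice and 0 lower (against 3.54%), DESeq2 called 1, and the median log2 fold change was 0.40, beside -0.01 for all genes. Krt79 (chr15:101929332-101940324) was the 1 gene (2.17%, against 1.72%) that passed without a minimum fold change. It had 462, 569.7, 415 and 493 CPM on the I3C diet and 885, 875, 813 and 654 CPM on the AhR-poor diet, without overlap, a log2 fold change of 0.73 (SE 0.14, adjusted p = 0.00395). With papain it had 610.3, 471, 495 and 427 and 1044, 766, 708 and 758 CPM, again without overlap (0.71 (SE 0.14, adjusted p = 0.00118)). Between papain and vehicle the log2 fold changes of Krt79 were 0.05 (SE 0.14, adjusted p = 0.835) and 0.02 (SE 0.14, adjusted p = 0.927) on the I3C and AhR-poor diets. Markers of the sebaceous gland (7 genes) moved the same way. Their sum was 8.90, 12.5, 9.22 and 18.5 CPM on the I3C diet and 87.3, 90.3, 43.7 and 63.7 CPM in AhR-poor mice with vehicle, and 13.3, 6.41, 7.05 and 6.32 and 64.8, 45.9, 49.9 and 71.1 CPM with papain, and 6 and 7 of the 7 were called higher. Their part in the level of Krt79 was not tested. The groups with vehicle did not overlap for 4 keratins (8.7%, against 8.12% of all genes), namely Krt23, Krt73, Krt77 and Krt79. Krt23, a simple epithelial keratin picked out after its values were seen, was the gene DESeq2 called, with 0.861, 1.25, 2.91 and 1.501 CPM on the I3C diet and 4.74, 3.02, 5.44 and 5.39 CPM on the AhR-poor diet (1.51 (SE 0.39, adjusted p = 0.0472) with edgeR).

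Krt15 also differed by diet with papain, where 293, 189, 232 and 173 CPM on the I3C diet lay below 407, 423, 355 and 357 CPM on the AhR-poor diet (0.80 (SE 0.17, adjusted p = 0.00279), under the fold threshold). Whether the papain difference itself depended on the diet was tested as an interaction, and 0 of 46 keratins were called by edgeR or DESeq2, against 0.0181% of all genes. At an unadjusted p under 0.05, 4 genes passed (8.7%, against 13.5% of all genes): Krt15 (log2 difference of the differences 0.56 (SE 0.23, adjusted p = 0.321)), Krt32 (1.25 (SE 0.44, adjusted p = 0.235)), Krt9 (2.64 (SE 1.07, adjusted p = 0.313)) and Krt84 (-1.02 (SE 0.45, adjusted p = 0.339)). For Krt15, Krt32 and Krt9 the fitted papain difference was nearer to 0 on the AhR-poor diet, and so it was for Krt84. With 4 mice a group these differences did not pass the adjustment. The comparisons that share a group of mice are not independent of each other.

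**Figure D3:**
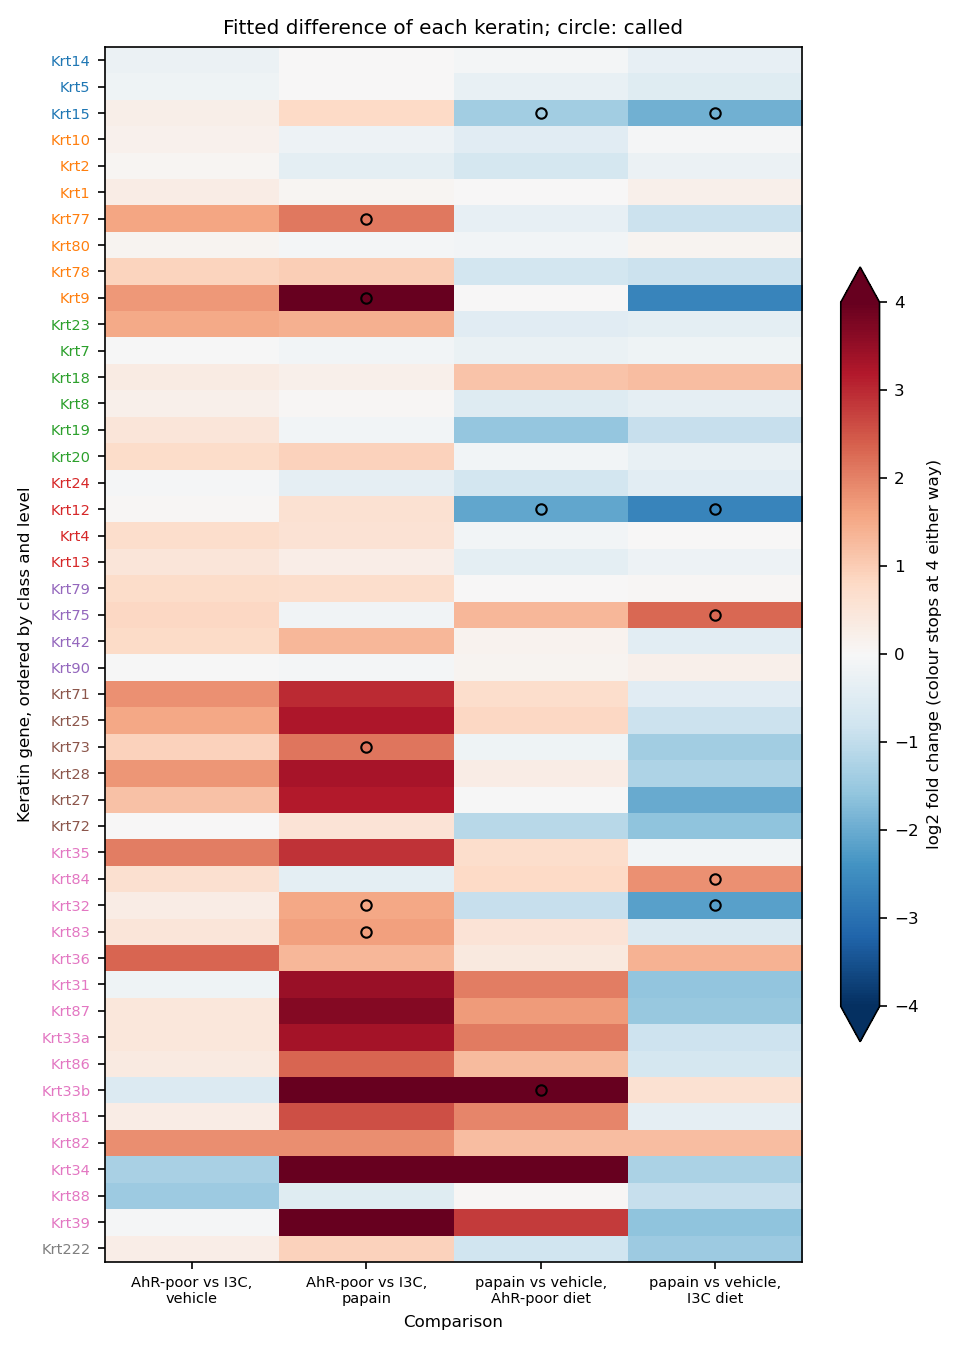
Fitted log2 fold change of each of the 46 keratins in the 4 comparisons, ordered by class (colour of the names) and level, with circles at the 13 calls. The 6 inner root sheath keratins are on the higher side in both diet comparisons, while the 3 basal keratins are on the lower side in both papain comparisons. Values of genes near the floor, such as Krt34 and Krt39, depend on the fit's prior count.

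The follicle keratins as classes followed single mice more than groups. The 6 inner root sheath keratins, which stiffen the sheath around the growing hair, summed to 3.36, 2.47, 5.06 and 6.09 CPM on the I3C diet and 15.9, 3.55, 21.8 and 3.89 CPM in AhR-poor mice with vehicle (T100 to T103 in order). With papain the sums were 4.51, 1.44, 1.37 and 0.696 CPM on the I3C diet and 31.4, 1.42, 21.2 and 8.38 CPM on the AhR-poor diet (T104, T105, T107 and T112). T100, T102, T104 and T107 were far above the rest, T112 was the next, and T101, T103 and T105 lay within the range of the I3C mice. The 15 hair and nail keratins, the chains of the hair shaft, had sums of 4.48, 4.13, 7.59 and 8.31 CPM on the I3C diet with vehicle, 11.6, 4.71, 4.71 and 4.77 CPM with papain, 12.9, 4.74, 18.1 and 10.8 CPM in AhR-poor mice with vehicle and 39.7, 4.50, 13.9 and 24.6 CPM with papain. Again T104 was highest, T112 and T102 followed, and T101 and T105 were as low as the I3C mice. Between the diets with papain, 1 of the 6 (Krt73) and 2 of the 15 (Krt32 and Krt83) were called higher, against 7.15% of all genes. The median log2 fold change of the 6 inner root sheath keratins was 3.07 there. Their sums ran from 1.42 to 31.4 CPM among the AhR-poor mice with papain. No median is given for the hair and nail keratins, since Krt34 and Krt39 of that class entered through the AhR-poor papain libraries.

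Hair follicle markers that are not keratins (12 genes) did not share this pattern in their sum, which was 234 to 246 CPM on the I3C diet and 215 to 223 CPM in AhR-poor mice with vehicle, and 163 to 199.6 and 165 to 178 CPM with papain. None of the 12 was called between the diets by edgeR, with 3 higher and 2 lower at an unadjusted p under 0.05 between vehicle mice, against 7 and 2 between papain mice, and DESeq2 called 0 and 1. At that p, 8.94% of all genes were higher and 3.54% lower with vehicle, and 17.5% and 14.5% with papain. The sum rests mainly on the factors Sox21 and Foxn1, whereas the follicle signal Shh and the hair enzyme Padi3 had medians of 0 to 0.293 CPM. Some rarer markers were on the higher side in AhR-poor mice with papain, as the follicle keratins were. Log2 fold changes were 2.70 for Padi3, 2.66 for Shh, 1.79 for Lef1 and 1.34 for Lhx2, with overlapping groups (edgeR adjusted p 0.0138 to 0.0974). Those of Edar, Gsdma3, Msx2 and Hoxc13 were also positive, at 0.93, 0.72, 0.55 and 0.18, with overlapping groups. Those of Foxn1, Tchh, Dlx3 and Sox21 were negative, from -0.63 to -0.10. With papain, 2 of the 12 (Edar, the ectodysplasin receptor of placodes, and Dlx3, a factor of differentiating cells) were called lower on both diets. Msx2 was called lower on the I3C diet, and Gsdma3, a gasdermin, was called higher on the AhR-poor diet with a log2 fold change of 1.18 (SE 0.24, adjusted p = 8.08e-04 by edgeR). For comparison, 2.42% of all genes were called lower and 6.04% higher on the AhR-poor diet, and 5.29% lower on the I3C diet. Keratin-associated proteins, which cross-link the shaft keratins, were mostly below detection, with 18 of 57 genes reaching 10 counts. The sum over all 57 was 1.88, 0.662, 2.20 and 0.858 CPM in T100 to T103 and 9.28, 0.303, 2.94 and 4.62 CPM in T104, T105, T107 and T112, against 0.612 to 1.62 and 0.174 to 2.09 CPM on the I3C diet, with T104 highest as for the hair keratins. EdgeR called 0 of the 18 in the 4 comparisons, where 0, 8, 7 and 0 were higher and 0, 0, 0 and 1 lower at an unadjusted p under 0.05, in the order diet with vehicle, diet with papain, papain on the AhR-poor diet and papain on the I3C diet. DESeq2 called 2 higher between the diets with papain, where 17.5% of all genes were higher at an unadjusted p under 0.05. The 18 were kept by counts summed over all libraries, and T104, T112 and T107 had the highest sums over the 57. Genes kept mainly through these AhR-poor papain libraries were bound to lean higher in the 2 comparisons that use that group. How many of the 18 were kept so was not tested. No conclusion is drawn from the 8, the 7 and the 2 DESeq2 calls.

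**Figure D4:**
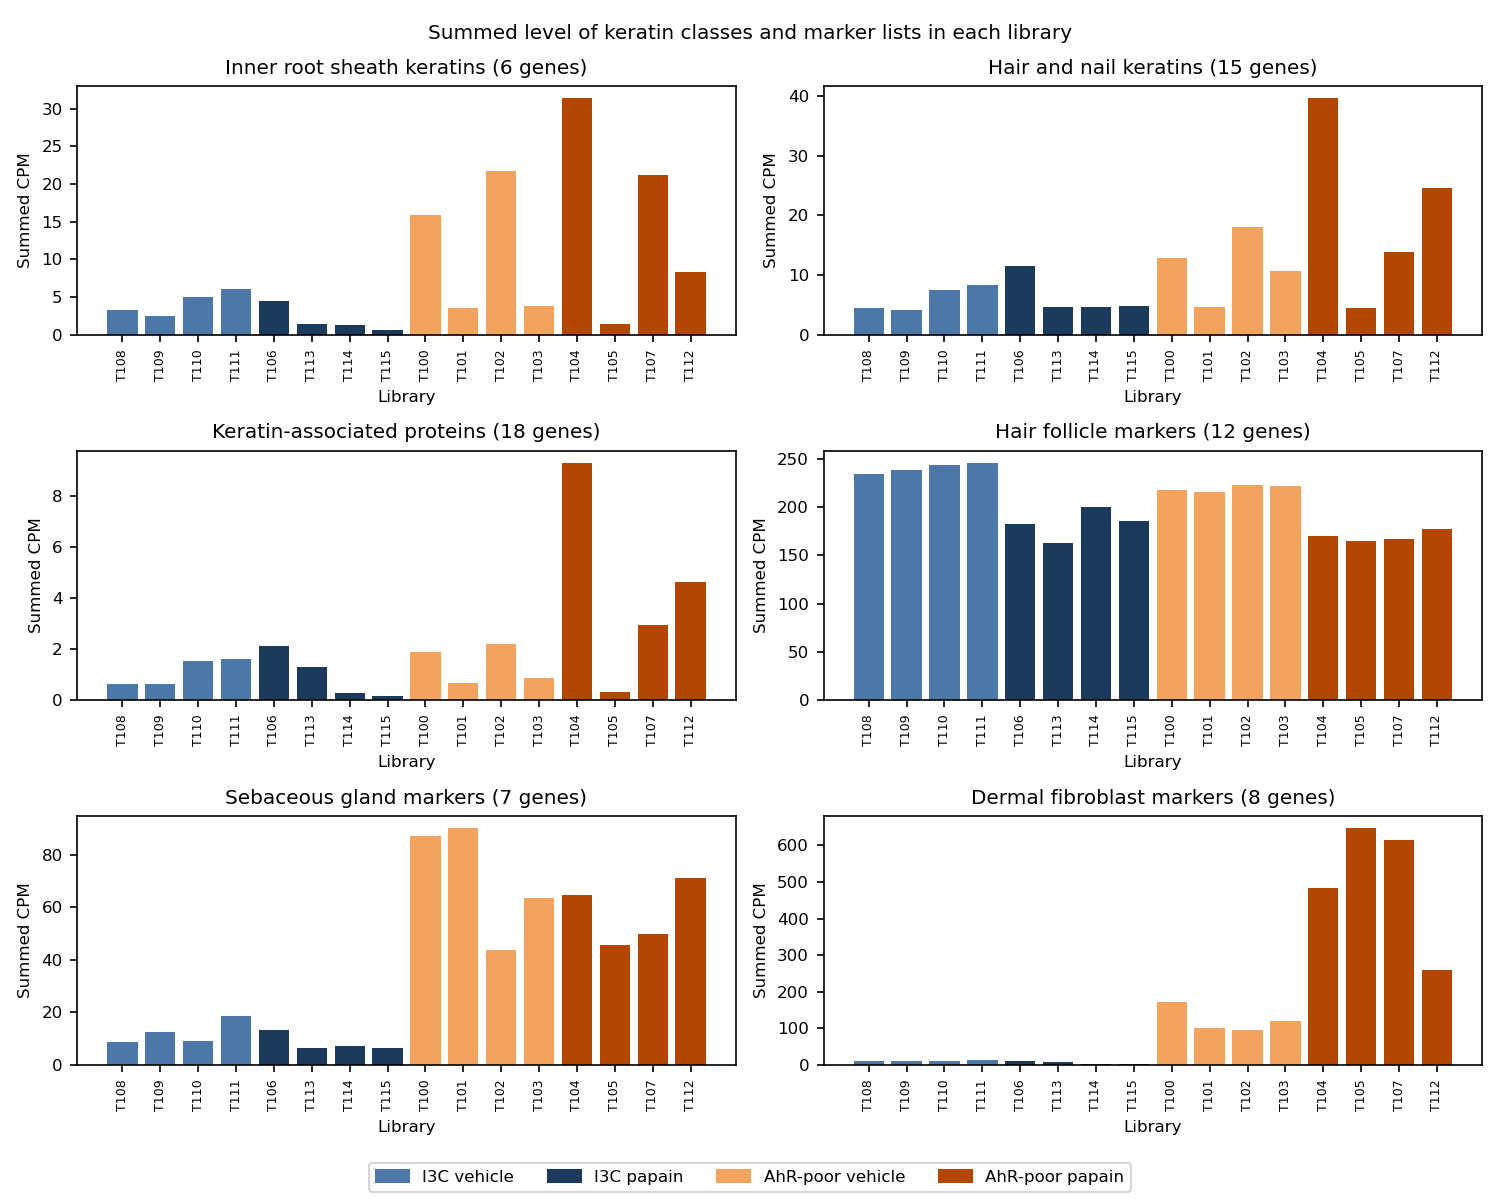
Summed CPM of the inner root sheath and hair keratins, the keratin-associated proteins and 3 marker lists in each of the 16 libraries, coloured by group. The keratin-associated proteins are summed over all 57 genes, not only the 18 tested that the panel title names. T104 is highest for both keratin classes (31.4 and 39.7 CPM) and T105 of the same group is low (1.42 and 4.50 CPM), whereas the sebaceous and fibroblast markers are higher in all 8 AhR-poor libraries than in any I3C library.

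Ratios of paired chains within a library do not depend on the scaling between libraries, and they are given as log2 of counts per kilobase, as a description with no test. Their level depends on the exon lengths used, and their differences between groups do not. Krt5 to Krt14, the basal pair, was at -0.35 ± 0.24 (mean ± SD, n = 4) with vehicle and -0.50 ± 0.06 with papain on the I3C diet, and at -0.29 ± 0.14 and -0.52 ± 0.07 on the AhR-poor diet, so Krt5 was somewhat below Krt14 in each library. Krt1 to Krt10, the suprabasal pair, was at -3.31 ± 0.08 and -3.05 ± 0.23 on the I3C diet and at -3.21 ± 0.17 and -2.75 ± 0.15 on the AhR-poor diet, where the papain values ran from -2.96 to -2.62 and those with vehicle from -3.40 to -3.04, apart by a small gap. Krt2 to Krt1 set the later against the earlier suprabasal type II chain. It ran from 2.22 to 2.68 with vehicle and from 1.56 to 2.06 with papain on the AhR-poor diet, without overlap, and from 2.51 to 2.80 and 1.78 to 2.48 on the I3C diet, also without overlap. Krt14 to Krt10, basal over suprabasal, overlapped between all groups (-1.02 to -0.10, -1.15 to -0.49, -1.68 to -0.46 and -0.95 to 0.15 for I3C vehicle, I3C papain, AhR-poor vehicle and AhR-poor papain), with T104 as the 1 library above 0. Krt8 to Krt18, the pair of simple epithelia, was above 0 in each vehicle library (0.05 to 1.17 and 0.34 to 1.36) and below 0 in each papain library (-2.10 to -0.11 and -1.33 to -0.57).

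The mean of the last ratio went from 0.76 with vehicle to -1.10 with papain on the I3C diet. On the AhR-poor diet it went from 0.74 to -0.93. Krt18, picked out after its values were seen, held part of this change, and the remainder lay in Krt8. Krt18 had 0.775, 0.688, 0.381 and 0.840 CPM with vehicle and 1.19, 1.41, 1.94 and 1.84 CPM with papain on the I3C diet, without overlap (1.25 (SE 0.36, adjusted p = 0.0106)), and 0.654, 0.424, 0.791 and 1.47 against 2.91, 1.16, 1.90 and 1.44 CPM on the AhR-poor diet (1.14 (SE 0.35, adjusted p = 0.0174)). Neither difference of Krt18 passed the threshold with edgeR, and both did with DESeq2. Krt8, the partner of Krt18, was at 0.449 to 2.71 CPM over all libraries and shares 16.9% of its 100-base windows with a pseudogene. Krt18, Krt8 and Krt20 mark Merkel cells in skin, and of 8 other markers of these touch receptors the defining factors Atoh1 and Sox2 had group medians of at most 0.0691 and 0.0352 CPM. The sum of the 8 was 1.63 to 2.21 and 1.15 to 1.83 CPM with vehicle and papain on the I3C diet, against 2.62 to 4.66 and 2.51 to 3.07 CPM in AhR-poor mice. Of the 8, 0 were called between papain and vehicle by edgeR or DESeq2, with 1 lower on the AhR-poor diet at an unadjusted p under 0.05. Piezo2, a touch channel, was called higher in AhR-poor mice with vehicle (3.32, SE 0.57, adjusted p = 0.00145) and with papain (3.41, SE 0.56, adjusted p = 1.87e-04). It was the only 1 of the 8 that edgeR called between the diets. At an unadjusted p under 0.05, 2 of the 8 were higher in each diet comparison. Isl1 and Insm1 averaged 0.512 and 0.793 CPM in I3C mice and 0.514 and 0.866 CPM in AhR-poor mice with vehicle. With papain these means were 0.475 and 0.712 against 0.384 and 0.784 CPM. The other simple epithelial keratins ranged from 0.0283 to 1.74 CPM per kilobase on average, and none of the 6 was called in any comparison by edgeR; DESeq2 called 1 in each of the 4.

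**Figure D5:**
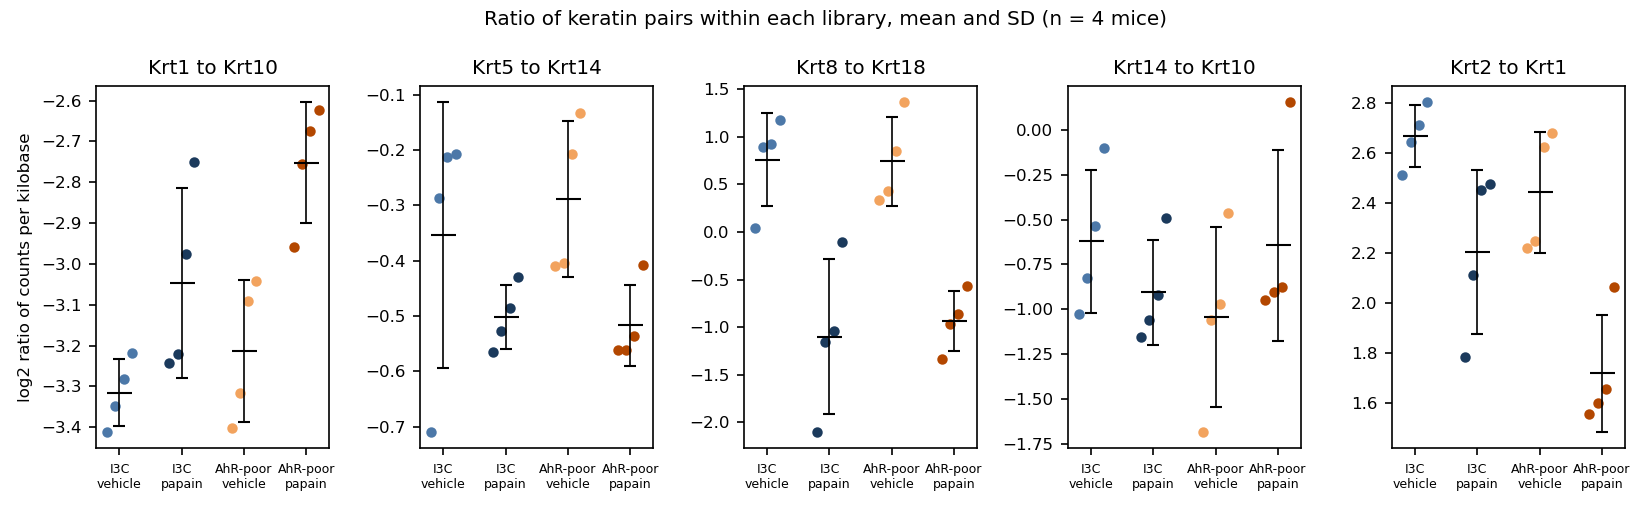
Log2 ratio of counts per kilobase of 5 keratin pairs in each library by group, with the mean and SD of 4 mice; the vertical scales differ. Krt8 to Krt18 changes sign between vehicle and papain on both diets, and Krt2 to Krt1 is lowest with papain on the AhR-poor diet (1.72 ± 0.23).

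Proteins that bundle keratin filaments or tie them to desmosomes and hemidesmosomes were compared for 16 genes. With papain, 1 of the 16 was called lower on each diet, against 2.42% of all genes on the AhR-poor diet and 5.29% on the I3C diet. It was Dst, whose epidermal form links keratin filaments to hemidesmosomes of basal cells, with a log2 fold change of -1.28 (SE 0.12, adjusted p = 2.72e-07 by edgeR) on the AhR-poor diet and -1.36 (SE 0.12, adjusted p = 6.84e-08) on the I3C diet, from medians of 895 and 1149 CPM with vehicle to 389 and 455 CPM with papain. Between the diets with vehicle, 1 was called higher on the AhR-poor diet, Pkp2, a plakophilin of desmosomes (1.53, SE 0.33, adjusted p = 0.00994), at medians of 0.531 CPM in I3C mice and 1.66 CPM in AhR-poor mice. In that comparison 1.59% of all genes were called in either direction. Between the diets with papain 0 were called by edgeR and 1 was called higher by DESeq2. At an unadjusted p under 0.05, 2 were higher and 8 lower, against 17.5% and 14.5% of all genes. Dsp, the desmoplakin that anchors keratin filaments in desmosomes and the partner with the highest median CPM in each group, was lower on the AhR-poor diet there without overlap (-0.62, SE 0.14, adjusted p = 0.00359), under the fold threshold. Jup, Pkp1, Pkp3 and Plec were also lower without overlap, with log2 fold changes of -0.39, -0.49, -0.24 and -0.45 and adjusted p-values from 0.0105 to 0.0327, which did not pass. So were Dst, Tchh and Fam83h, with log2 fold changes of -0.27, -0.29 and -0.37. Pkp2 went the other way, higher without overlap (1.17, SE 0.32, adjusted p = 0.0120 by edgeR). Of all genes, 24.9% did not overlap between these groups.

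The remaining members were low. The other internal stratified keratins, of mouth and oesophagus, averaged 0.0327 to 0.242 CPM per kilobase, and the unplaced Krt222 averaged 0.0560. In the companion layer, sebaceous duct and nail class, the genes other than Krt75 and Krt79 averaged 0.336 and 0.866 CPM per kilobase and were not called by edgeR or DESeq2. Among the suprabasal genes, Krt80 ranged over 111.7 to 212 CPM and Krt78 over 13.0 to 115.2 CPM without a call by either tool in the 4 comparisons, both given after their values were seen. Of the hair and nail keratins, 1 (Krt88) had at most 3 counts in all 16 libraries, and Krt34 and Krt39 had more than 3 in 1 library each (T104 for Krt34 and Krt39). No fold is given for these. Close copies limit the hair keratins in particular: Krt81, Krt86 and Krt34 share 25.0%, 24.6% and 17.5% of their 100-base windows with other keratins, so that reads of one may have been counted for another or discarded. Exons of Krt10, Krt5, Krt32 and Krt75 share 146, 129, 249 and 129 bases with antisense or micro-RNA genes of the other strand, with 32924, 10160, 8 and 38 counts.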

How the data were processed

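RNA of footpad epidermal cells from 16 female mice was made into libraries with the TruSeq Stranded mRNA kit. The authors used STAR and the mm10 genome for alignment, and deposited raw counts of reads per gene without normalization. The counting tool, annotation and strand setting are not given in the sources used here. Of 50600 gene identifiers, 50376 were matched to GENCODE release M21 (GRCm38), which gave symbols, positions and exon lengths. The keratins, their classes, the marker lists and the partner list were chosen with earlier results of these data known.

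Groups came from the labels. The 22155 genes that reached 10 counts over the libraries entered edgeR 4.0.16 (R 4.3.3) with TMM factors, a mean for each of the 4 groups and the robust quasi-likelihood F test. The diets were compared within vehicle and within papain mice (AhR-poor against I3C), the treatments within each diet, and the interaction was tested. A call needed a Benjamini-Hochberg adjusted p under 0.01, over all genes, with a log2 fold change of more than 1 in size. CPM were scaled with TMM factors. The two-sided exact permutation tests of 4 against 4 libraries cannot go below p = 0.0286, and groups that do not overlap reach it. Named were the keratins called in any comparison and the 8 most abundant per kilobase, and other keratins named were chosen after their values were seen. Alternatives were DESeq2 1.42.0, RLE factors or the library size by itself for scaling, filters by filterByExpr, 1 count in total or 10 counts in every library, a fit of the 8 libraries compared, an adjusted p under 0.05, no fold minimum, and leaving out each library. The fits were tested on simulated data before use. No model term for cage or sequencing unit was possible, since diet and cage coincide and the unit of each library is not labelled.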

Additional observations from a re-analysis of the deposited data

Results flagged for a closer look

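Within groups of 4 mice, a library was set apart where its gap to the nearest other exceeded Dixon's 95% limit of the group's range. Of 68 groups (17 named keratins in 4 groups) 5 were so, where chance gives about 1 in 20. Krt5 had 9016 CPM in T103, below the other AhR-poor mice with vehicle, and Krt1 had 4089.7 CPM in T104, below the other AhR-poor mice with papain. On the I3C diet with papain, T106 stood above the others for Krt33b (0.122 CPM, against 0 in the other 3) and Krt73 (0.974 CPM). Krt77 had 83.3 CPM in T110, above the other I3C mice with vehicle.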

How the results depend on the processing

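The 13 calls kept their direction in every alternative that tested the gene, and the falls of Krt15 and Krt12 with papain on both diets and of Krt32 and the rise of Krt84 on the I3C diet kept the threshold in all of them. RLE factors and library size only left each count as it was. Between the diets with vehicle, the keratins called higher went from 0 to 1 with DESeq2, with an adjusted p below 0.05 and with no minimum fold change, and ranged from 0 to 1 without 1 library (1 without T106). Between the diets with papain, the 5 called higher became 2 with at least 10 counts in every library, 9 with DESeq2, 1 with only the 8 libraries compared and 10 at an adjusted p below 0.05, and 1 to 8 without 1 library. For papain on the AhR-poor diet, the 1 called higher became 0 with filterByExpr, with at least 1 count, with at least 10 counts in every library and with only the 8 libraries, 3 at an adjusted p below 0.05, and 0 to 4 without 1 library (2 without T103, 4 without T105, and 0 without T100, T101, T102, T104 or T112). With DESeq2 the count stayed at 1 but the gene was Krt18. The 2 called lower became 1 with at least 10 counts in every library. For papain on the I3C diet, the 2 called higher ranged from 1 to 3 without 1 library (1 without T109, T111, T113 or T114), and the 3 called lower became 1 with at least 10 counts in every library and 5 at an adjusted p below 0.05. The filters at 10 counts in every library and filterByExpr test fewer keratins, so a gene can be lost by not being tested; the cause of the other changes was not tested. No paired analysis was possible because the library codes are not shared between groups. Most follicle keratins had few counts, which limits what can be detected for them.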
